A study of Mus musculus with 4 samples.

Results

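The kinesin motor genes were examined in meiotic male germ cells lacking either the piRNA nuclease PLD6 or the DNA methylation cofactor DNMT3L. Members were all genes of the deposited table whose symbol begins with Kif followed by a digit or with Kifc, which gave 42 of 23980 genes. They were divided by known role into 13 mitotic motors, which act on the spindle and in cytokinesis, 8 motors of testis, cilium and flagellum, and 20 transport and other interphase motors. The pseudogene Kif4-ps was left unclassed.

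The 4 polyA(+) libraries all came from F1 mice of the strains C57BL6/J and MSM/Ms at 3 to 4 weeks after birth, and from cells stained with a Hoechst DNA dye and sorted as leptotene/zygotene (L/Z) spermatocytes. The genotypes were Dnmt3L heterozygote and Dnmt3L KO (the Dnmt3L line), and Pld6 WT and Pld6 KO (the Pld6 line), with 1 library each. Both mutations were constitutive knockouts, so somatic cells of the testis carried them as well, and each mutant was compared with the heterozygote and the WT as controls. The number of animals behind a library was not given in the sources used here, and no mutant value has a replicate. Fragments counted in genes numbered 30439943 to 63875934 per library. Pld6 was at 0.334 FPKM in the Pld6 KO against 17.2 and 19.5 FPKM in the heterozygote and the WT, and at 8.55 FPKM in the other mutant. Dnmt3l had 0 fragments in the Dnmt3L KO, against 101 in the heterozygote, 46 in the Pld6 WT and 20 in the Pld6 KO. FPKM, fragments scaled for transcript length and library depth, allows levels to be compared between genes.

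Kinesins use ATP to walk along microtubules or to take their ends apart. In dividing cells they separate spindle poles, move chromosomes and build the midzone where the cell is cut, while in resting cells they carry vesicles, mitochondria and ciliary proteins. Male germ cells also use kinesins to shape the spermatid head and to assemble the sperm tail.

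The libraries differed in the other cells they held. Markers of spermatids (13 of 13 detected) summed to 7267 FPKM in the heterozygote and 208 FPKM in the Pld6 WT, and to 29.5 and 10.8 FPKM in the Dnmt3L KO and Pld6 KO. Acrv1, Acr and Catsper1 were at 0 fragments in the Pld6 KO, and Catsper1 and Smcp in the Dnmt3L KO. Markers of pachytene spermatocytes (10 of 10) summed to 1089 and 634 FPKM in the controls, and to 87.4 and 102 FPKM in the Dnmt3L KO and Pld6 KO. Sertoli markers (12 of 12, none at 0) followed the line instead, with sums of 3373 FPKM (heterozygote) and 4825 FPKM (Dnmt3L KO) beside 117 FPKM (Pld6 WT) and 313 FPKM (Pld6 KO). Leydig markers (6 of 6, none at 0) summed to 325.6, 315.8, 24.9 and 219.7 FPKM and peritubular or vascular markers (5 of 5, none at 0) to 419, 260.9, 97.2 and 447 FPKM in that order, so within the Pld6 line both were lower in the WT. The L/Z markers themselves (13 of 13, none at 0) summed to 1600, 999, 2765 and 1658 FPKM in the heterozygote, the Dnmt3L KO, the Pld6 WT and the Pld6 KO. In sorted fractions such as these, fewer cells of a type and less RNA per cell cannot be told apart.

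Promoter sequences of the mitotic motor genes are shown because most of them hold a short element known from other mitotic genes. Whether the element bears on their levels in these libraries was not tested. The cell cycle genes homology region (CHR, TTTGAA) is a known promoter element of genes that are switched on for mitosis. It was searched on both strands in RefSeq promoters of GRCm38.p6, from 250 bases before to 50 bases after the annotated start, which were found for 33 of the 42 genes. A match was present in 11 of 12 promoters of mitotic motors (91.7%), in 1 of 8 promoters of the testis, cilium and flagellum class and in 2 of 17 promoters of the transport class, against 17.9% of all 32851 promoters. Within 50 bases of the start the match was kept in 9 of the 12 mitotic promoters (75.0%), against 4.94% of all promoters. It was kept in 0 of 8 promoters of the testis, cilium and flagellum class and in 2 of 17 of the transport class (11.8%). Some matching windows surround an annotated start inside the gene, away from the first base of the gene. These were the windows of Kif2c (first base 117182624), Kif14 (136466301) and Kif27 (58364745), and the matching window of Kif1a (93102039). The matches of Kif2c and Kif14 were not among those 9. A match is a description of the letters and not a binding site. The windows around the match nearest to the start are printed below on the gene's strand, with that match in capitals (TTCAAA is the same element on the opposite strand). In the window of Kif20b a further match follows directly and is left in lower case.
Kif23, chr9:61946775-61946814 (- strand): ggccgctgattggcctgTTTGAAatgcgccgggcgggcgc
Kif22, chr7:127042415-127042454 (- strand): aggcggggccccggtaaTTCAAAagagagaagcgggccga
Kif2c, chr4:117178853-117178892 (- strand): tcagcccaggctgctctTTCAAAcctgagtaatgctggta
Kif11, chr19:37376346-37376385 (+ strand): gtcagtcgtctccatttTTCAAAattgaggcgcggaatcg
Kif15, chr9:122951045-122951084 (+ strand): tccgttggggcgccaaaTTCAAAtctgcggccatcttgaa
Kifc1, chr17:33890610-33890649 (- strand): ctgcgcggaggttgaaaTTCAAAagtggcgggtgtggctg
Kifc5b, chr17:26917103-26917140 (+ strand): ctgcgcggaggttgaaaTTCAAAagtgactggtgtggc
Kif20b, chr19:34922348-34922387 (+ strand): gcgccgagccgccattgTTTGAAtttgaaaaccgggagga
Kif4, chrX:100626067-100626106 (+ strand): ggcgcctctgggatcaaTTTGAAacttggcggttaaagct
Kif18b, chr11:102925099-102925138 (- strand): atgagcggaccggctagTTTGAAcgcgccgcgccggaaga
Kif14, chr1:136467603-136467642 (+ strand): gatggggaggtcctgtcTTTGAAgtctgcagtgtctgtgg
Kif18a was the mitotic motor with a promoter in the table but without a match. Kifc1 and Kifc5b have nearly the same window and also share much of their transcripts. Of all 50-base windows of the longest Kifc1 transcript, 45.8% occur unchanged in Kifc5b, so how fragments were divided between these genes is uncertain.

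**Figure D1:**
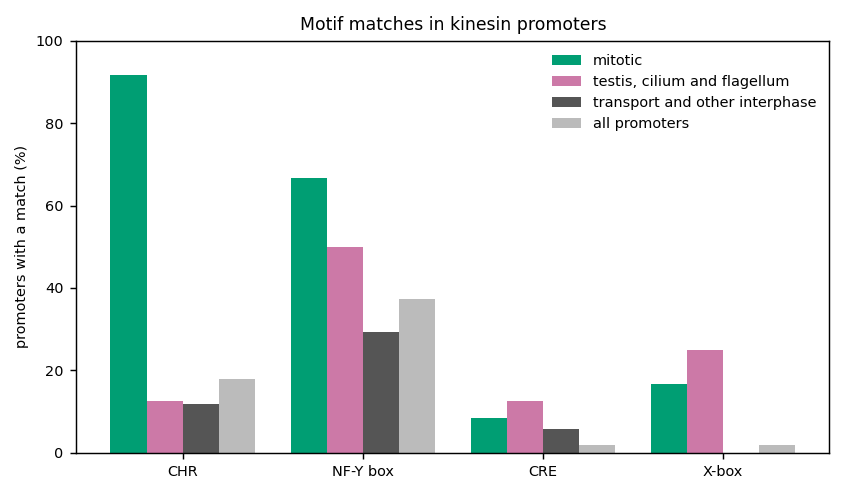
Share of promoters (percent, y axis) with at least 1 match to the CHR, the NF-Y box, the CRE and the X-box, for the 3 kinesin classes (12, 8 and 17 promoters) and for all 32851 promoters. The CHR bar of the mitotic motors stands at 91.7% against 17.9% for all promoters.

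Mitotic motors were expressed in all 4 libraries and were ordered by line, not by mutation. All 13 were lower in both libraries of the Dnmt3L line than in both libraries of the Pld6 line, an order found for 19.8% of all genes and for 26.2% of the 14416 genes with a mean FPKM of at least 1. The mean level in the Pld6 line was 1.78 to 2.64 times that in the Dnmt3L line, with a median of 1.99 over the 13 genes against 0.962 over the genes with a mean FPKM of at least 1. Over the family, 26 of 42 genes had this order and 6 the opposite one, which was found for 19.1% of all genes and 26.1% of those with a mean FPKM of at least 1. The order by line was not tested, and line, sorting and cell content cannot be told apart.

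The most abundant was Kif23, the motor subunit of centralspindlin, which holds the midzone together during cytokinesis. Kif23, on chromosome 9 from 61917277 to 61946810 in mm10, stood at 39.5 FPKM in the heterozygote, 36.1 FPKM in the Dnmt3L KO, 69.6 FPKM in the Pld6 WT and 70.0 FPKM in the Pld6 KO. The libraries of a line lay close together and the lines did not overlap. Kif20a, which brings the chromosomal passenger complex to the midzone, was at 30.1, 27.0, 59.4 and 54.0 FPKM in the same order of libraries. Kif11, the plus-end motor that pushes spindle poles apart, was at 19.6, 21.3, 45.8 and 49.0 FPKM. Both genes again kept the libraries of a line together.

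The chromosome-bound motors Kif22 and Kif2c differed somewhat more within the lines. Kif22, a chromokinesin that pushes chromosome arms away from the poles, was at 31.2 FPKM in the heterozygote, 22.1 FPKM in the Dnmt3L KO, 45.0 FPKM in the Pld6 WT and 57.8 FPKM in the Pld6 KO. Kif2c, the centromeric depolymerase that corrects faulty attachments, was at 34.9, 19.3, 47.4 and 52.5 FPKM. For these genes the Dnmt3L KO library was the lowest and the Pld6 KO library the highest. The 8 other mitotic motors (Kif15, Kifc1, Kif20b, Kif18a, Kif4, Kif18b, Kifc5b and Kif14) had mean levels of 4.72 to 26.9 FPKM and were likewise lower in both libraries of the Dnmt3L line. Within the lines they varied, and Kif18a, for one, was lower in the Pld6 KO (19.9 FPKM) than in the Pld6 WT (29.1 FPKM).

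A gene was called higher or lower in a mutant when FPKM + 1 was above or below both control values by more than 2-fold, and 0 of the 13 mitotic motors were called in either mutant. Of all genes, 1.04% were called higher and 5.41% lower in the Pld6 KO and 2.14% and 5.78% in the Dnmt3L KO, so for 13 genes a count of 0 is near the background. The median log2 change of FPKM + 1 against the mean of the controls was 0.41 in the Pld6 KO and -0.71 in the Dnmt3L KO, beside -0.0530 and -0.0150 over genes with a mean FPKM of at least 1. Within the lines these medians shrank to 0.0240 (Pld6 KO against Pld6 WT, range -0.53 to 0.70) and -0.17 (Dnmt3L KO against the heterozygote, range -0.82 to 0.33). The difference between the controls, -0.94 as the median of heterozygote against WT, was larger than either.

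Other gene groups moved with the same order. Cycling cell markers such as Mki67 and Top2a (10 of 10, none at 0) summed to 565 and 433 FPKM in the heterozygote and the Dnmt3L KO. Their sums were 1027 and 962 FPKM in the Pld6 WT and the Pld6 KO. Of the 10 markers, 8 had the order of the mitotic motors and 1 (Cdk1) had the opposite order. The heterozygote was 1.82-fold below the Pld6 WT both for the summed cycling markers and for the summed mitotic motors. For the summed L/Z markers it was 1.73-fold below, and 8 of the 13 L/Z markers had the order of the mitotic motors, with 1 in the opposite order. When each library was scaled to its L/Z markers, a choice made after the values had been seen, 2 of the 13 mitotic motors kept the order. The mitotic sum was then 15.3% and 20.8% of the L/Z marker sum in the heterozygote and the Dnmt3L KO, and 16.1% and 28.5% in the Pld6 WT and the Pld6 KO. The L/Z marker sum itself was lower in each mutant than in the control of its line, and on that scale both mutants stood above the control of their line. The part of Sertoli cell RNA in the order by line was not tested.

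**Figure D2:**
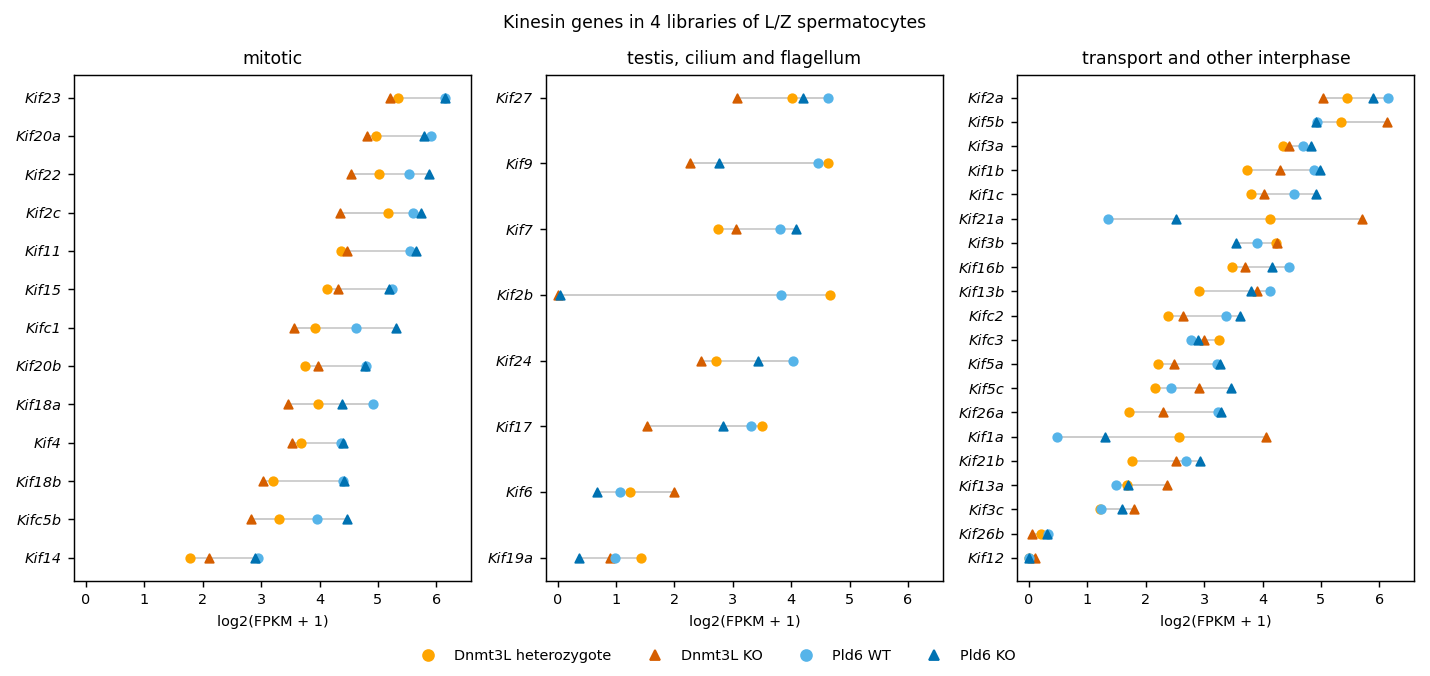
Level of each classed kinesin gene as log2(FPKM + 1) on the x axis, with 1 panel per class, genes ordered by mean FPKM, circles for controls and triangles for mutants. The blue symbols of the Pld6 line lie right of the orange symbols of the Dnmt3L line for all 13 mitotic motors, while Kif2b and Kif9 separate mutants from controls.

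As classed here, with earlier results of these data known, motors of testis, cilium and flagellum held all lower calls of the family. Kif2b is a depolymerase like the mitotic motor Kif2c, and classed with it would be a lower call among the mitotic motors. Kif2b and Kif9 were called lower in both mutants and Kif17 in the Dnmt3L KO, and 0 of the 8 genes were called higher. Over all 42 genes the lower calls numbered 2 in the Pld6 KO where 5.41% of all genes were called lower, and 3 in the Dnmt3L KO, where the share was 5.78%. Among the genes with a mean FPKM of at least 1 these shares were 8.57% and 9.16%. Both mutants were lower for 2 of the 42 genes, against 4.61% of all genes. The family as a whole stood near the background. The class median was -0.53 in the Pld6 KO and -1.18 in the Dnmt3L KO on the log2 scale, and -0.54 and -0.74 against the control of the same line.

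The promoters of the 3 genes called lower are printed so that their elements can be seen. Kif9 holds an X-box (the arm GTNNCC followed after NN by GGNNAC, the element of RFX factors in genes of cilia), which 1.88% of all promoters hold. Kif17 holds a palindromic cyclic AMP response element (CRE, TGACGTCA, the element read by CREM in spermatids), which 1.79% hold. Kif2b holds neither of these, and its match is to the NF-Y box (CCAAT), present in 37.4% of all promoters. The CRE was also found in Kif5c and Kif18a and the X-box in Kif23 and Kif18a, so neither was particular to genes called lower. Capitals mark the matches, again searched on both strands.
Kif2b, chr11:91577506-91577805 (- strand): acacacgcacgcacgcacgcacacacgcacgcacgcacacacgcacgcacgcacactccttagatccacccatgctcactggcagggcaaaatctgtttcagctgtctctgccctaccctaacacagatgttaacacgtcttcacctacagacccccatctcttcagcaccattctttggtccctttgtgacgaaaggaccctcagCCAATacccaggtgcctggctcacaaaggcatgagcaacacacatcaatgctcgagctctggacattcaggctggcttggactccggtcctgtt
Kif9, chr9:110476744-110477043 (+ strand): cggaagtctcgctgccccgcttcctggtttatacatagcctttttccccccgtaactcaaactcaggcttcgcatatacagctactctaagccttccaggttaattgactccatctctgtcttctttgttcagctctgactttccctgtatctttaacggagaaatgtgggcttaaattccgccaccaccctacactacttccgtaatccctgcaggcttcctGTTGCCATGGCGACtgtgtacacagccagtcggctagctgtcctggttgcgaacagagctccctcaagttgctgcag
Kif17, chr4:138262001-138262300 (+ strand): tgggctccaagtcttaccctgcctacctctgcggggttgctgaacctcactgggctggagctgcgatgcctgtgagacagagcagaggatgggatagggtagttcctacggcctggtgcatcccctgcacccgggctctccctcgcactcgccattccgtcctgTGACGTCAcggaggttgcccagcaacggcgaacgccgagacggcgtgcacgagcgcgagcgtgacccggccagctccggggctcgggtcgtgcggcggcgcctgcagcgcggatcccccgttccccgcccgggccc

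Kif2b, a microtubule depolymerase of the kinesin-13 family (chromosome 11, 91575286 to 91577555), was close to absent from both mutants. It was at 24.5 FPKM (3294 fragments) in the heterozygote and 13.2 FPKM (1108 fragments) in the Pld6 WT, whereas the Dnmt3L KO had 0 fragments and the Pld6 KO 2 fragments (0.0305 FPKM). Groups did not overlap, with both controls far above both mutants. Against the control of its own line it was 431-fold lower in the Pld6 KO, with a 95% exact Poisson interval of 119 to 3560 that covers only the counting error of the 2 fragments. With the 0 fragments of the Dnmt3L KO set to a floor of 3 in that library it was 802-fold lower there. The lower limit of the 95% exact Poisson interval was 652-fold in that library. By edgeR's quasi-likelihood test over 18657 genes the adjusted p was 0.102 in the Pld6 KO and 0.0967 in the Dnmt3L KO, with each mutant below 2 of 2 controls. DESeq2 gave 1.82e-09 and 2.52e-07, and edgeR without a filter on low counts 0.0233 and 0.0203.

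Kif9, a motor of the central apparatus of motile cilia and the sperm tail (chromosome 9, 110476738 to 110525174), was at 23.7 FPKM in the heterozygote and 21.1 FPKM in the Pld6 WT. The mutants stood at 3.79 FPKM (467 fragments, Dnmt3L KO) and 5.79 FPKM (491 fragments, Pld6 KO). The controls differed by 1.12-fold, while the mutants lay 6.25-fold and 3.65-fold below the control of their line. The edgeR adjusted p was 0.302 for the Dnmt3L KO and 0.506 for the Pld6 KO, and DESeq2 gave 0.0225 and 0.207. Kif9 therefore kept a measurable level in both mutants where Kif2b did not.

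Kif17, which shuttles the CREM coactivator FHL5 (ACT) in spermatids and carries cargo in cilia, was at 10.3 FPKM in the heterozygote and 8.91 FPKM in the Pld6 WT. It was at 1.88 FPKM (317 fragments) in the Dnmt3L KO, 5.47-fold below the heterozygote, and at 6.16 FPKM (624 fragments) in the Pld6 KO, 1.45-fold below the WT. Both mutants lay below both controls, but the Pld6 KO by less than the 2-fold of the rule. Whether the mutants differ for Kif17 was not tested. The edgeR adjusted p was 0.400 for the Dnmt3L KO and 0.994 for the Pld6 KO.

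The 3 remaining abundant genes of the class act at the centriole and cilium and were ordered by line. Kif27, linked to assembly of motile cilia, was at 15.2 and 7.37 FPKM in the heterozygote and the Dnmt3L KO, and 23.7 and 17.4 FPKM in the Pld6 WT and the Pld6 KO. Kif24, which trims centriolar microtubules and holds back cilium growth, was at 5.60, 4.49, 15.4 and 9.82 FPKM in that order of libraries. Kif7, the regulator of Hedgehog signalling at the tip of the cilium, was at 5.75, 7.31, 13.0 and 16.0 FPKM. Kif27 and Kif24 were lower in each mutant than in the control of its line, and Kif7 was higher. Kif6 and Kif19a had mean levels of 1.52 and 0.959 FPKM. Kif19a, which limits the length of motile cilia, was lower in both mutants (29 fragments in the Pld6 KO and 133 in the Dnmt3L KO) than in both controls (358 and 129 fragments) on the FPKM scale, at 0.283 and 0.868 FPKM against 1.71 and 0.980 FPKM.

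Kif2b, Kif9 and Kif17 lay below both controls in both mutants, and so did the summed markers of pachytene cells and spermatids. The sizes differed. Against the Pld6 WT, Kif2b was 431-fold, Kif9 3.65-fold and Kif17 1.45-fold lower in the Pld6 KO. The marker sums were 19.2-fold (spermatid) and 6.21-fold (pachytene) lower in that comparison. Of 13 spermatid markers, 12 were called lower in the Pld6 KO and 11 in the Dnmt3L KO, and of 10 pachytene markers, 8 in each. The controls differed 35.0-fold in the spermatid sum and 1.72-fold in the pachytene sum, with the heterozygote higher for both. Kif2b differed 1.86-fold, Kif17 1.16-fold and Kif9 1.12-fold between the controls in the same direction. The part of pachytene cells and spermatids in the lower levels of Kif2b, Kif9 and Kif17 was not tested.

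**Figure D3:**
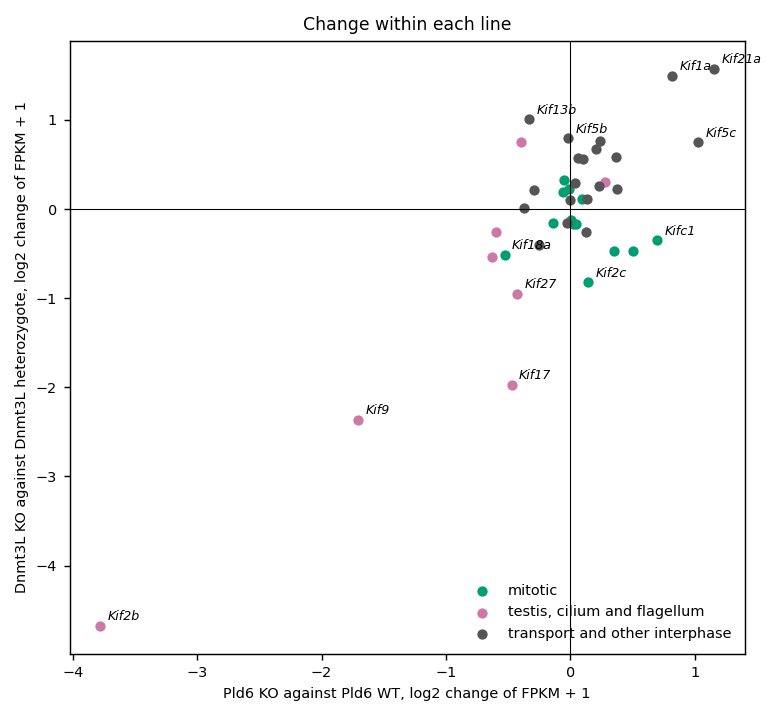
Change of each classed kinesin gene within its line, with Pld6 KO against Pld6 WT on the x axis and Dnmt3L KO against the Dnmt3L heterozygote on the y axis, both as the log2 change of FPKM + 1 from 1 library a side. Kif2b (-3.78 and -4.67) and Kif9 (-1.70 and -2.37) lie far from the other genes, Kif17 is low on the y axis, and mitotic motors lie around the origin.

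Transport motors were less uniform. In the Pld6 KO 1 of the 20 genes was called higher (Kif5c), where 1.04% of all genes were called higher, and in the Dnmt3L KO 2 were (Kif1a and Kif21a), where the share was 2.14%. Among genes with a mean FPKM of at least 1 the shares were 1.51% and 3.29%. None of the 20 genes was called lower in either mutant. The class median was 0.14 and 0.03 on the log2 scale against both controls and 0.11 and 0.42 within the lines.

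Kif2a, a depolymerase that also acts at spindle poles, was the most abundant of the class, at 42.7 FPKM in the heterozygote, 32.0 FPKM in the Dnmt3L KO, 69.5 FPKM in the Pld6 WT and 58.2 FPKM in the Pld6 KO. Kif5b, the ubiquitous conventional kinesin, was at 39.4, 69.0, 29.6 and 29.2 FPKM in the same order. The order by line was thus opposite for these genes, with Kif5b highest in the Dnmt3L KO. Kif3a, a subunit of the kinesin-2 motor that moves ciliary proteins, varied least over the libraries among the 18 genes of the class with a mean FPKM of at least 1, at 19.3, 21.0, 24.8 and 27.4 FPKM. Kif1b, a carrier of mitochondria and vesicles, was at 12.3, 18.6, 28.5 and 30.7 FPKM, and Kif1c, a carrier of vesicles, at 12.9, 15.3, 22.4 and 29.3 FPKM. Both were higher in both libraries of the Pld6 line.

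Among those 18 genes the widest spread was that of Kif1a and Kif21a. Kif1a, the carrier of synaptic vesicle precursors in neurons (chromosome 1, 93015455 to 93102039), was at 4.93 FPKM in the heterozygote, 15.7 FPKM in the Dnmt3L KO, 0.400 FPKM in the Pld6 WT and 1.47 FPKM in the Pld6 KO. Kif21a, a motor that slows microtubule growth at the cell cortex (chromosome 15, 90933275 to 91050382), was at 16.6, 51.3, 1.56 and 4.71 FPKM. For both genes each mutant lay above the control of its line, by 3.19-fold and 3.68-fold for Kif1a and by 3.10-fold and 3.01-fold for Kif21a in the Dnmt3L KO and the Pld6 KO. The controls differed by more than that, 12.3-fold for Kif1a and 10.6-fold for Kif21a. The direction in the Pld6 KO therefore depended on the control, with a log2 change against both controls of -0.57 for Kif1a and -0.82 for Kif21a, and of 0.82 and 1.16 without the heterozygote. The edgeR adjusted p in the Dnmt3L KO was 0.702 for Kif1a and 0.680 for Kif21a.

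The Sertoli marker sum took the same order over the libraries as these motors, lowest in the Pld6 WT, then the Pld6 KO, the heterozygote and the Dnmt3L KO, as did each marker other than Amh, which was at 1.14 FPKM in the Pld6 WT and 0.561 FPKM in the Pld6 KO. The sum of the 12 Sertoli markers was 28.9-fold higher in the heterozygote than in the Pld6 WT, and all 12 genes were higher in both libraries of the Dnmt3L line. The part of Sertoli cell RNA in the levels of Kif1a and Kif21a was not tested.

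Kif5c, the neuronal form of conventional kinesin, was at 3.47 FPKM in the heterozygote, 6.51 FPKM in the Dnmt3L KO, 4.38 FPKM in the Pld6 WT and 9.98 FPKM in the Pld6 KO. Both mutants lay above both controls, by 2.28-fold in the Pld6 KO and 1.87-fold in the Dnmt3L KO against the control of the line. Only the Pld6 KO passed the 2-fold rule, and it did not with TMM scaling in place of the deposited scaling. The edgeR adjusted p was 0.772 in the Pld6 KO. Some markers of other cells were also called higher there, where 1.04% of all genes were. They were 3 of 11 spermatogonium markers and 2 of 5 peritubular or vascular markers, none at 0. Against the Pld6 WT, 6 of the 11 spermatogonium markers were higher and 5 lower, and all 5 peritubular or vascular markers were higher. The spermatogonium markers summed to 770, 719, 1014 and 1019 FPKM in the heterozygote, the Dnmt3L KO, the Pld6 WT and the Pld6 KO. The part of these cells in the level of Kif5c was not tested. The 12 other genes of the class had mean levels of 0.0180 to 15.1 FPKM, and their changes within the lines ran from -0.37 to 0.37 in the Pld6 KO and from -0.26 to 1.01 in the Dnmt3L KO. Kif12 had 7 fragments in the Dnmt3L KO and 0 in the other libraries, and Kif26b had 12 to 74 fragments.

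With 1 control in place of both, more genes passed the rule. Without the Dnmt3L heterozygote, 2 kinesin genes were called higher in the Pld6 KO (4.69% of all genes) and without the Pld6 WT 15 were (5.55% of all genes), of which 7 were mitotic. Genes called lower in the Pld6 KO numbered 2 without the heterozygote (6.46% of all genes) and 5 without the WT (13.4%). In the Dnmt3L KO, 13 genes were called lower without the heterozygote (8.75% of all genes), 7 of them mitotic, and 4 without the WT (8.22%). Higher calls there numbered 3 in either case (12.1% of all genes without the heterozygote and 3.0% without the WT). A gene called against both controls is called with either alone by the rule itself, so the added genes are those that depended on the control.

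**Figure D4:**
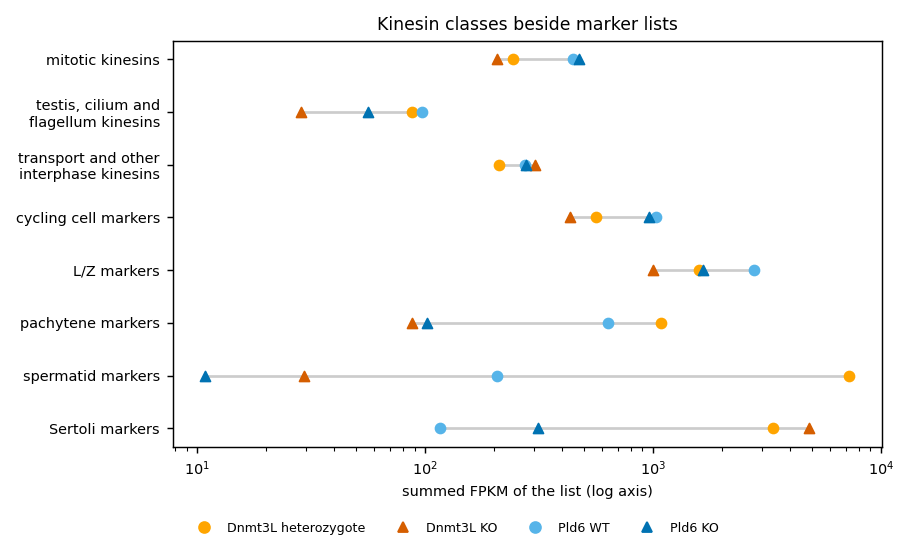
Summed FPKM on a log axis for the 3 kinesin classes and 5 marker lists, with 1 symbol per library (circles for controls, triangles for mutants). The mitotic class and the cycling markers split by line, the testis class splits mutants from controls as the pachytene and spermatid markers do, and Sertoli markers run from 117 FPKM in the Pld6 WT to 4825 FPKM in the Dnmt3L KO.

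With edgeR (quasi-likelihood test, Benjamini-Hochberg adjustment) 0 of the 41 kinesin genes in the test reached an adjusted p under 0.05 for either mutant, and so did 0 of all 18657 genes (0.0%). At an unadjusted p under 0.05 there were 2 lower genes in the Pld6 KO and 3 in the Dnmt3L KO, all of the testis, cilium and flagellum class, and 0 higher, while 7.41% and 7.72% of all genes were lower and 0.547% and 1.09% higher at that level. DESeq2 called 1 lower gene in the Pld6 KO (Kif2b) and 2 in the Dnmt3L KO (Kif2b and Kif9), where it called 5.1% and 5.31% of all genes lower, and 0 kinesin genes higher (0.0807% and 0.0977% of all genes). The spread in these models came from the 2 controls alone, with 1 residual degree of freedom. In simulated data with the dispersion of the controls the edgeR test found 0 of 200 genes changed 4-fold for the Pld6 KO among 18174 tested, so it could not detect such changes here.

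Genes whose products work with the motors (cargo adaptors, regulators and spindle proteins) were listed as partners. Of 30 partners, 2 were called lower in each mutant (Crem and Fhl5), and 1 was called higher in the Dnmt3L KO (Trak1) and 0 in the Pld6 KO. The shares of all genes were 5.41% and 5.78% lower and 1.04% and 2.14% higher in the Pld6 KO and the Dnmt3L KO, so the partners stood near the background. Crem, the transcription factor of spermatid genes, was at 28.0 and 23.7 FPKM in the heterozygote and the Pld6 WT, and 6.71 and 7.21 FPKM in the Dnmt3L KO and the Pld6 KO. Fhl5, its coactivator and the cargo of Kif17, was at 28.1 FPKM in the heterozygote and 0 fragments in the Dnmt3L KO. That was 401-fold lower with the 0 fragments set to a floor of 3. Fhl5 was at 6.12 FPKM in the Pld6 WT and 2.06 FPKM in the Pld6 KO. Trak1, which links conventional kinesin to mitochondria, was at 18.2, 41.9, 3.57 and 7.49 FPKM in the heterozygote, the Dnmt3L KO, the Pld6 WT and the Pld6 KO, the order of Kif1a and Kif21a, and its change in the Pld6 KO also turned from -0.49 against both controls to 0.89 without the heterozygote. The edgeR adjusted p of these partners was 0.104 for Fhl5 and 0.484 for Crem in the Dnmt3L KO. For Fhl5 there, DESeq2 gave 1.53e-05 and edgeR without a filter on low counts 0.0258.

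Of the 30 partners, 16 were lower in both libraries of the Dnmt3L line than in both of the Pld6 line, and 4 were higher, where all genes gave 19.8% and 19.1%, and genes with a mean FPKM of at least 1 gave 26.2% and 26.1%. Among the 16 were all subunits of the chromosomal passenger complex (Aurkb, Incenp, Birc5 and Cdca8), singled out after their values were seen. Cenpe, itself a kinesin that brings chromosomes to the spindle equator, was at 14.5 and 16.8 FPKM in the heterozygote and the Dnmt3L KO and 38.8 and 42.6 FPKM in the Pld6 WT and the Pld6 KO, and was singled out after its values were seen. Racgap1, the partner of Kif23 in centralspindlin and singled out in the same way, was at 70.4, 77.4, 69.8 and 76.3 FPKM in that order, so the subunits of this complex did not share the order by line.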

How the data were processed

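Libraries were strand-specific polyA(+) RNA sequenced as 50-base single ends. The authors used TopHat for alignment and Cuffdiff for gene levels (mm10 is named in the submitters' processing notes, versions were not given in the sources used here). The deposited table gives, per gene and library, an estimated count of fragments before scaling (97.28% to 97.45% of them whole numbers) and FPKM scaled between libraries by the authors' tool. Another deposited column, the scaled fragments, is a signal equal to the estimated count times 1 constant per library. No value of a kinesin gene was marked as failed. Intervals and floors cover counting error only.

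Changes were log2 ratios of mutant FPKM to mean control FPKM, each after adding 1, which understates changes of low genes. For edgeR 4.0.16 and DESeq2 1.42.0 (R 4.3.3), counts were rounded, all 4 libraries entered in 3 groups, and edgeR used TMM and filterByExpr. The edgeR step was tested on simulated data. At a dispersion of 0.02 it found 175 of 200 genes changed 4-fold in the Pld6 KO comparison (18004 genes tested). Values in every library are given for the 5 most abundant genes of each class and for members with mean FPKM of at least 1 called in either mutant, and for the 3 most abundant called partners. Gene positions are those of RefSeq genes in GRCm38.p6, matched by symbol for 42 of 42. The members, classes and marker lists were chosen from general knowledge with earlier results of these data known. The spread behind every p is that between the heterozygote and the WT, which differ in line.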

Additional observations from a re-analysis of the deposited data

Results flagged for a closer look

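The median change of the mitotic motors had opposite signs in the lines, 0.024 on the log2 scale in the Pld6 KO against the Pld6 WT and -0.166 in the Dnmt3L KO against the Dnmt3L heterozygote. What drew attention was the sign alone, and the difference was not tested. No kinesin gene moved over 2-fold in opposite directions in the lines.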

How the results depend on the processing

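No paired test was run. The genotype labels pair each mutant with the control of its line, but line as a term beside both mutants leaves no residual degree of freedom. The changes within the lines are therefore given without a test. Leaving out 1 control gave 2 to 15 higher and 2 to 5 lower kinesin genes in the Pld6 KO, and 3 higher with either control left out and 4 to 13 lower in the Dnmt3L KO. The class medians then ran from 0.0240 to 1.03 (mitotic), -0.615 to -0.535 (testis, cilium and flagellum) and 0.113 to 0.459 (transport) in the Pld6 KO, and from -1.05 to -0.166, -1.57 to -0.741 and -0.187 to 0.423 in the Dnmt3L KO. A pseudocount of 0.1 FPKM gave 5 lower genes in the Dnmt3L KO and a testis, cilium and flagellum median of -0.788 in the Pld6 KO. TMM scaling gave 0 higher genes in the Pld6 KO, as did a 3-fold rule, and the 3-fold rule also gave 0 in the Dnmt3L KO. DESeq2 called 1 and 2 lower kinesin genes in the Pld6 KO and the Dnmt3L KO, and edgeR without a filter 1 and 1. The order by line held for 13 mitotic motors and 26 kinesin genes with the deposited and with TMM scaling, and for 2 and 3 when libraries were scaled to the L/Z markers. The cause of these shifts was not tested. Kif1a, Kif21a and Trak1 changed sign in the Pld6 KO without the heterozygote, from -0.568 to 0.82, -0.816 to 1.16 and -0.487 to 0.894. Smaller changes also turned sign, those of Kif20a and Kif2a in the Pld6 KO without the heterozygote (Kif2a also with TMM scaling), of Kif27 and Kif24 in the Pld6 KO without the WT, and of Kif11, Kif7, Kif3a, Kif1b and Kif1c in the Dnmt3L KO without the WT. The named genes kept their sign in each mutant where they were called. Without 1 control no residual degree of freedom is left, so the tests were not refitted. A filter at a mean FPKM of 1 moved no count of calls.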

Other observations

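The mutants can be set against each other without the controls. Kif21a was at 51.3 FPKM in the Dnmt3L KO and 4.71 FPKM in the Pld6 KO, and Kif1a at 15.7 and 1.47 FPKM. Kifc1, a minus-end motor of the spindle and the spermatid head, was at 10.9 and 38.8 FPKM, with the share of its fragments against Kifc5b uncertain. Kif4-ps, the transcribed pseudogene, was at 1.62 and 0.773 FPKM in the heterozygote and the Pld6 WT and at 0.256 and 0.364 FPKM in the Dnmt3L KO and the Pld6 KO (42 and 40 fragments). Its parent gene Kif4 was at 11.9, 19.5, 10.5 and 20.1 FPKM in the same order, so the pseudogene did not follow it. These genes were singled out after their values were seen, and the difference between the mutants was not tested.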
